A study of Mus musculus with 15 samples.

Results

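The genes described here encode subunits of the AMPA and NMDA receptors, the ion channels through which glutamate excites nerve cells. They were chosen by name: Gria1, Gria2, Gria3 and Gria4 for the AMPA receptor, and Grin1, Grin2a, Grin2b, Grin2c and Grin3a for the NMDA receptor, 9 of the 15932 genes in the deposited table, and all 9 were found. The study measured RNA in single cells of the striatum, the brain region that receives glutamatergic input from cortex and thalamus and is rich in dopamine receptors. Male C57BL/6J mice, bought at 8 weeks of age and habituated for about 1 week, were treated for 28 to 29 days with the antipsychotic haloperidol from an implanted pellet (n = 5), with the antipsychotic olanzapine in food (n = 5) or with placebo (n = 5). The labels do not give the route of the placebo, and the 2 drugs went in by different routes, so drug and route cannot be told apart.

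AMPA subunits combine into tetramers that open within milliseconds of glutamate release. Gria2 encodes GluA2, whose edited form keeps the channel nearly closed to calcium, so its abundance relative to Gria1, Gria3 and Gria4 bears on how much calcium AMPA receptors can pass. NMDA receptors need the Grin1 product, GluN1, which binds glycine or D-serine, together with Grin2 products that bind glutamate and set how fast the channel closes. Grin3a encodes GluN3A, a glycine-binding subunit that lowers calcium entry. In the striatum these receptors carry the excitatory drive onto the projection neurons of the direct and indirect pathways, and some glia carry AMPA receptors too.

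The authors sorted their cells into 7 classes, used here as deposited. After filtering, 5266 cells remained, with 70 to 1172 cells and 212300 to 4231756 UMIs (unique molecular identifiers, each standing for 1 captured RNA molecule) per mouse. A fault in 1 mouse had to be dealt with first. Placebo 5 shared 101 cell barcodes with placebo 2 and 110 with placebo 3, whereas any other pair of mice shared at most 2. Of these 211 cells, 210 had the same class in both mice, and their median UMI count in placebo 5 was 0.328 (placebo 2) and 0.308 (placebo 3) times that of the partner. They included 49 of the 84 neurons of placebo 5 that passed the filters. The 211 cells were removed from placebo 5 for every value below unless stated.

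Marker genes bore out the names neuron, astrocyte, neuroblast and microglia, but the names of the oligodendrocyte lineage were the reverse of their markers. Cells labelled oligodendrocyte held the precursor markers Pdgfra and C1ql1 at 889 and 1248 CPM (the standard scaling of UMI counts to a common total), against 0.742 and 1.48 CPM in cells labelled olig precursor. The cells labelled olig precursor held the myelin gene Mog at 2568 CPM, against 16.3 CPM in cells labelled oligodendrocyte. They are called oligodendrocyte (precursor markers) and olig precursor (myelin markers) below. Main cell numbers were 910 neurons, 679 neuroblasts, 1568 astrocytes, 421 oligodendrocyte (precursor markers), 346 olig precursor (myelin markers), 844 microglia and 498 other cells, a class led by endothelial and mural genes such as Cldn5 and Vtn. The classes had been made by clustering all genes, so differences between classes are given as levels, with no test.

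Neurons were the main source of most subunit RNAs, yet 3 of the 9 genes reached their highest mean level in glia. Levels are CPM of a mouse's UMIs in that class, averaged over mice with at least 10 such cells. The kit reads the 3′ end of each RNA without scaling for gene length, so levels are compared between classes and mice, and the level of 1 gene against another depends also on how well its 3′ end was captured.

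Gria1 (chr11:57011387-57330244, plus strand, GRCm38, GENCODE M21, as for all genes below) encodes GluA1, the subunit most tied to activity-dependent insertion into synapses. It averaged 427 ± 144 CPM in neurons (SD, n = 15) and 14.7 ± 19.8 CPM in neuroblasts (SD, n = 14), the next class. Neurons held 95.3% of its 1604 UMIs, and the lowest mouse for neurons, at 258 CPM, stood above the highest for neuroblasts, at 66.2 CPM. A Gria1 UMI was seen in 70.9% of neurons at a median of 3368 UMIs per cell and in 0.711% of microglia at a median of 3580 UMIs, microglia being taken as the background from free RNA.

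Gria2 (chr3:80681450-80802835, minus strand) was the subunit spread over most classes. It averaged 1666 ± 371 CPM in neurons (n = 15), 634 ± 144 CPM in oligodendrocyte (precursor markers) (n = 11), 411 ± 142 CPM in astrocytes (n = 15) and 199 ± 49.7 CPM in neuroblasts (n = 14; SD in each case). Microglia averaged 5.08 ± 7.49 CPM (SD, n = 13). The neuron range stood clear of the others, whereas the ranges of the oligodendrocyte (precursor markers), astrocyte and neuroblast classes each overlapped the next. After each cell was thinned to 1000 UMIs, 76.8% of neurons, 47.1% of oligodendrocyte (precursor markers), 29.1% of astrocytes and 0.608% of microglia kept a Gria2 UMI, against 95.9%, 77.4%, 52.4% and 1.54% before thinning. In astrocytes Gria2 stood at 425 CPM in the 1388 cells with no UMI of the synaptic genes Snap25 and Syt1 and at 347 CPM in the 180 cells with one. These genes were sparse in astrocytes, at 45.0 and 3.05 CPM, so a cell without their UMIs can still hold neuronal RNA. The neuron markers ranged there from 2.81 CPM for Rbfox3 to 159 CPM for Meg3, and the part of neuronal RNA in the Gria2 level was not tested.

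Gria3 (chrX:41400854-41678601, plus strand), which encodes GluA3, was shared by neurons and the precursor-marker class. It averaged 231 ± 74.3 CPM in neurons (SD, n = 15) and 140 ± 34.1 CPM in oligodendrocyte (precursor markers) (SD, n = 11), and no other class averaged above 3.79 CPM. The ranges over mice of these highest classes overlapped. Gria4 (chr9:4417896-4796234, minus strand), which encodes GluA4, a subunit with fast kinetics, had the same pair of classes in the other order. It averaged 72.2 ± 26.4 CPM in oligodendrocyte (precursor markers) (SD, n = 11) and 56.2 ± 29.0 CPM in neurons (SD, n = 15), a difference within the spread over mice. It was still seen at 22.1 ± 12.1 CPM in olig precursor (myelin markers) (SD, n = 9). No Gria4 UMI was found among 4265883 astrocyte UMIs, which allows a level of up to 0.703 CPM.

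The NMDA receptor genes were more strictly neuronal, with 2 exceptions. Grin1 (chr2:25291181-25319187, minus strand) averaged 327 ± 79.0 CPM in neurons (SD, n = 15), which held 97.0% of its 1213 UMIs, and 7.30 ± 10.6 CPM in neuroblasts (SD, n = 14). Grin2a (chr16:9567898-9995560, minus strand), which encodes the GluN2A subunit that rises with synapse maturation, averaged 170 ± 59.2 CPM in neurons (SD, n = 15), with 97.8% of its 636 UMIs there. Grin2b (chr6:135713233-136173511, minus strand), which encodes the GluN2B subunit with slow closing, averaged 1034 ± 214 CPM in neurons (SD, n = 15). Every neuronal range stood clear of the next class for these 3 genes. Grin2b was also present at 49.1 ± 16.8 CPM in neuroblasts (SD, n = 14) and 43.7 ± 15.9 CPM in astrocytes (SD, n = 15), with at least 1 UMI in every mouse of both classes. Its astrocyte level was 48.5 CPM in cells without a Snap25 or Syt1 UMI and 38.8 CPM in cells with one. As for Gria2, the part of neuronal RNA in it was not tested.

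Grin2c (chr11:115249169-115267243, minus strand), which encodes GluN2C, a subunit known for weak magnesium block, was found almost entirely in astrocytes. It averaged 272 ± 194 CPM there (SD, n = 15), 98.5% of its 1058 UMIs, and 1.05 ± 2.10 CPM in neurons (SD, n = 15). A Grin2c UMI was seen in 42.2% of astrocytes, 0.549% of neurons and 0.237% of microglia. Grin1, the partner that an NMDA receptor needs, averaged 1.12 ± 2.79 CPM in the same astrocytes (SD, n = 15), with 4 UMIs in 1568 cells.

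Grin3a (chr4:49661611-49845744, minus strand) was highest in oligodendrocyte (precursor markers), at 118 ± 56.3 CPM (SD, n = 11), where 29.5% of cells had a UMI. It averaged 20.3 ± 18.7 CPM in neurons (SD, n = 15) and 13.9 ± 14.7 CPM in astrocytes (SD, n = 15), and 3 of the 15 mice had none in neurons. The ranges of these classes overlapped between neighbours. The precursor-marker class held 10 UMIs of Grin1, 4 of Grin2b, 3 of Grin2c and no UMI of Grin2a, the last of which allows up to 2.13 CPM.

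**Figure D1:**
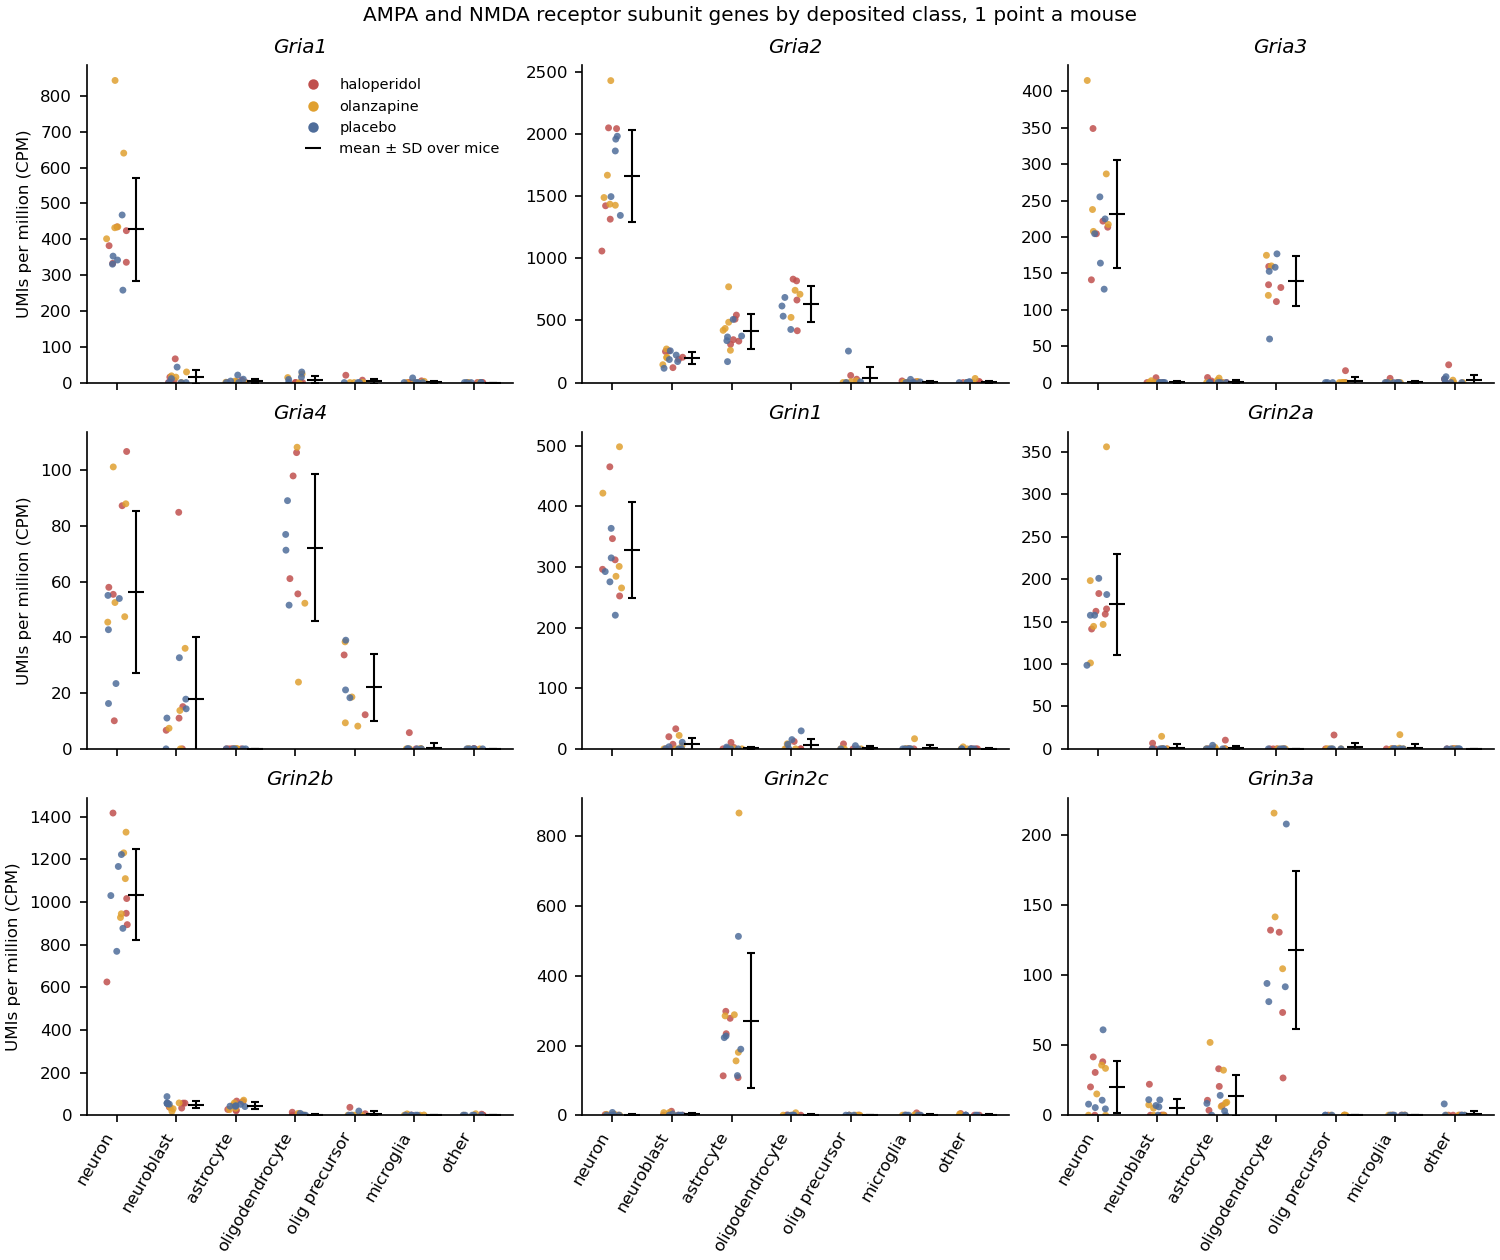
Level of each of the 9 genes (CPM, vertical axis from 0, a scale for each gene) in the 7 deposited classes, with a point for each mouse with at least 10 cells, coloured by drug, and the mean ± SD beside it. Neurons are highest for Gria1, Gria2, Gria3, Grin1, Grin2a and Grin2b, astrocytes for Grin2c (272 CPM on average) and the class labelled oligodendrocyte for Gria4 and Grin3a (72.2 and 118 CPM).

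The start regions of Grin1 and Grin2c are shown. Among the 4 members with such a region, these genes had the most opposed class patterns, neurons against astrocytes. The sequences are from RefSeq (GRCm38.p6, 250 bases before to 50 after the annotated start, read along the gene's strand), which gave such a region for 4 of the 9 genes. Capitals mark the GC box, searched as GGGCGG on both strands, a motif that 35.66% of 32851 mouse start regions of this length hold.
Grin1, chr2:25319138-25319437, minus strand: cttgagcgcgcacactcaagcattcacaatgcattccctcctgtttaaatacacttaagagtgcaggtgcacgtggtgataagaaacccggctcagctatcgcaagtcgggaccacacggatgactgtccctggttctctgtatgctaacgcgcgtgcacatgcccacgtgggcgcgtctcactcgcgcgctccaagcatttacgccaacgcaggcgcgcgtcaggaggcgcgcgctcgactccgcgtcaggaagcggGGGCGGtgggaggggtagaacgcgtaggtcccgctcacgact
Grin2c, chr11:115267194-115267493, minus strand: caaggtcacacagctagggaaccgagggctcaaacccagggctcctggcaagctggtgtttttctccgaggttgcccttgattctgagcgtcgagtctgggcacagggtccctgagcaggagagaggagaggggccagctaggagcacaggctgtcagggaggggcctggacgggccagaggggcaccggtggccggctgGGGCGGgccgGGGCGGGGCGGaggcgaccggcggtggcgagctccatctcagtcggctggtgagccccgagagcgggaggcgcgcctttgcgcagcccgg
The Grin1 region held 1 GC box and the Grin2c region 3, against none in Gria2 and Gria4. G and C made up 60.7% of the Grin1 region and 70.0% of the Grin2c region, against a median of 52.7% over all regions, and the Grin1 region held 33 CpG dinucleotides against a median of 7. The Grin1 region also held the E-box CACGTG, found in 7.15% of all regions. Neither the cyclic AMP response element TGACGTCA nor TATAAA was in any of the 4 regions. These are matches of letters, and no binding was measured.

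The mixture of AMPA subunit RNAs differed between classes. Of the 8496 AMPA subunit UMIs of neurons, 69.4% were Gria2, 18.0% Gria1, 10.0% Gria3 and 2.6% Gria4. Astrocytes were almost pure Gria2, at 98.7% of 1796 UMIs (95% Wilson interval 98.1 to 99.1). Oligodendrocyte (precursor markers) had 73.6% Gria2 of 1193 UMIs, with 17.4% Gria3, 8.0% Gria4 and 1.1% Gria1, so Gria3 and Gria4 stood where neurons had Gria1. Neuroblasts had 87.0% Gria2 of 529 UMIs. Among Grin2a, Grin2b and Grin2c, neurons had 86.0% Grin2b and 13.9% Grin2a, and astrocytes had 83.5% Grin2c and 16.2% Grin2b. These intervals cover counting error only.

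Within neurons, cells were split into ranges by marker UMIs, which are cuts on a score and not cell types. At least 3 UMIs of 8 projection neuron markers (such as Ppp1r1b and Pde10a) were held by 801 of the 910 neurons, and 72 neurons lay at 2 or 3 UMIs, next to the cut. Of the 801 neurons over the cut, 381 leaned to direct pathway markers (Drd1, Tac1), 312 to indirect pathway markers (Drd2, Penk) and 108 to neither. Only neurons under the cut could enter an interneuron range (Sst, Npy, Lhx6 and others), which held 45, and 64 lay in none. Neurons over the cut that carried interneuron markers therefore stayed in the other ranges. Haloperidol 1 had 0% of its neurons in the interneuron range, yet 16138 CPM of summed interneuron markers over all its neurons.

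Direct and indirect ranges were close for most subunits. Each range had 11 mice with at least 10 of its cells, but not the same 11. Haloperidol 1 (12 direct and 7 indirect cells) entered only the direct range. Olanzapine 2 (7 direct and 16 indirect cells) entered only the indirect range. The values were not paired by mouse. Gria2 averaged 1778 ± 298 CPM in the direct and 1799 ± 300 CPM in the indirect range (SD, n = 11 each). Grin2b averaged 1238 ± 246 CPM in the direct and 1130 ± 264 CPM in the indirect range (SD, n = 11 each). Gria3 averaged 210 ± 66.3 CPM in the direct and 300 ± 80.8 CPM in the indirect range, and Grin3a 19.9 ± 18.5 CPM in the direct and 5.90 ± 12.1 CPM in the indirect range (SD, n = 11 each), with overlapping ranges for both genes. The 45 cells of the interneuron range came from 11 mice, of which only olanzapine 5, with 13 cells, held at least 10, so their levels are pooled over cells with no spread over mice. They had 641 CPM of Gria2, 296 CPM of Grin2b and 92.1 CPM of Grin3a. Without olanzapine 5, left out after its values were seen, these were 705 CPM, 275 CPM and 51.6 CPM, and that mouse held 14 of the 23 Grin3a UMIs. Gria2 was 53.3% of AMPA UMIs in the interneuron range (95% Wilson interval 47.7 to 58.9, 300 UMIs) and 52.6% without olanzapine 5. It was 60.9% in neurons over the projection cut that leaned to neither pathway, 69.4% in the indirect and 72.7% in the direct range. These ranges were made from marker genes of the same cells, so no test was run between them.

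Over the 89 sums of a mouse and a class, each member was set against 5911 genes with at least 500 UMIs by Pearson's r of log2(CPM + 1). The sums share libraries and depth within a mouse and are mostly set by class, so r describes likeness of class pattern only. The genes most like Gria1 were Efna3 (r = 0.89) and Grin1 (0.85), and those most like Grin1 were Grin2a (0.90) and Gpr83 (0.88). Gria2 was most like the cell adhesion gene Nrcam (0.93) and Gpm6a (0.92), Gria3 like Lingo3 (0.93) and Asic4 (0.92), and Gria4 like Qpct (0.87) and Ank3 (0.85). Grin2a was most like the dynorphin precursor gene Pdyn (0.93) and Lamp5 (0.92), and Grin2b like Tenm4 (0.87) and the vesicular GABA transporter gene Slc32a1 (0.84). The astrocyte pattern of Grin2c was most like that of Scara3 (0.93) and Cyp4f15 (0.91), and Grin3a had the weakest matches, Brinp3 (0.80) and Igsf21 (0.77). Grin3a also had the fewest UMIs of the members, 315 in all classes, and the part of counting error in its r was not tested. With 315 and 378 UMIs, Grin3a and Gria4 were under the limit of 500 and could not be matches of other members.

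The drugs were compared over mice, with UMIs summed per mouse and class and edgeR's quasi-likelihood F test. A gene counted as called at a Benjamini-Hochberg adjusted p under 0.05 over all genes tested in that class. No subunit gene was called in any class for haloperidol against placebo, olanzapine against placebo or haloperidol against olanzapine. A low-count filter left 15 pairs of a member and a class: 7 members in neurons (not Grin2c and Grin3a), Gria2, Grin2b and Grin2c in astrocytes, Gria2, Gria3, Gria4 and Grin3a in oligodendrocyte (precursor markers), and Gria2 in neuroblasts. Over all genes and classes, 0.00518% of 19291 tests were called for haloperidol against placebo, 0% of 21970 for olanzapine against placebo and 0% of 19291 for haloperidol against olanzapine, so a count of 0 of 15 lies near the background share. DESeq2 called 0 of the 15 as well. At an unadjusted p under 0.05, edgeR counted 0, 2 and 0 of the 15 in these 3 comparisons and DESeq2 0, 1 and 0. The placebo mice enter both drug comparisons, which are therefore not independent. The labels do not say how far the mice of a group were kept apart, so p-values measure the spread between these mice.

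In neurons, Gria1 was the member with the smallest p under olanzapine. It had 1015, 790, 538, 491 and 452 CPM (scaled by TMM, as for genes in all drug comparisons) in olanzapine 1 to 5, against 554, 401, 390, 301 and 373 CPM in placebo 1 to 5. The highest values were olanzapine 1 and 2, which held 16 and 24 neurons, and the groups overlapped because placebo 1 stood above olanzapine 3, 4 and 5. The log2 fold change was 0.65 ± 0.27 (SE, 95% interval 0.10 to 1.19, unadjusted p = 0.0221, adjusted p = 1.00, edgeR). It was 0.65 with the shared cells kept in placebo 5, 0.60 with them left out of all 3 placebo mice and 0.27 without olanzapine 1 and 2 and haloperidol 1 and 2, the 4 mice with the fewest cells. These 4 mice, numbered 1 to 4 in the labels, were all drug-treated. Under haloperidol Gria1 had 558, 497, 429, 386 and 382 CPM in mice 1 to 5, which lay inside the placebo range but for haloperidol 1. Its log2 fold change against placebo was 0.14 ± 0.27 (SE), and haloperidol against olanzapine gave -0.50 ± 0.27 (SE, unadjusted p = 0.071, edgeR).

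Gria4 had the largest fold change of the members in neurons under both drugs, on few UMIs. It had 137, 102, 62.3, 66.6 and 11.6 CPM in haloperidol 1 to 5 (77 UMIs in all) and 122, 58.5, 65.4, 51.4 and 99.1 CPM in olanzapine 1 to 5 (114 UMIs), against 63.9, 19.1, 47.2, 27.4 and 62.2 CPM in placebo 1 to 5 (31 UMIs). Both drug groups overlapped placebo, and haloperidol held both the highest and the lowest mouse of all. The log2 fold change was 0.74 ± 0.41 for haloperidol against placebo (SE, unadjusted p = 0.0821, edgeR) and 0.81 ± 0.40 for olanzapine against placebo (SE, unadjusted p = 0.0497, edgeR), with an adjusted p of 1.00 in both. With the shared cells left out of all 3 placebo mice they were 0.53 for haloperidol and 0.61 for olanzapine. Over all alternatives run they ranged from 0.37 to 0.99 for haloperidol and from 0.60 to 1.05 for olanzapine.

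Gria2 in neurons did not separate by drug. It had 2633, 2399, 1599, 1512 and 1214 CPM in haloperidol 1 to 5 and 2009, 2998, 1855, 1614 and 1619 CPM in olanzapine 1 to 5, against 2348, 2299, 1653, 1570 and 2107 CPM in placebo 1 to 5. Every group spanned much the same range, with olanzapine 2 the highest mouse. The log2 fold change was -0.10 ± 0.27 for haloperidol and 0.01 ± 0.27 for olanzapine (SE, against placebo), with 95% intervals of -0.65 to 0.46 for haloperidol and -0.55 to 0.56 for olanzapine, which still allow changes of either sign.

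Of the other members tested in neurons, Gria3 averaged 266 ± 90.5 CPM under haloperidol and 326 ± 111 CPM under olanzapine, against 226 ± 61.9 CPM under placebo (SD, n = 5 each). Its log2 fold change against placebo was 0.18 ± 0.28 for haloperidol and 0.44 ± 0.28 for olanzapine (SE). Grin1 averaged 396 ± 118 CPM under haloperidol and 423 ± 134 CPM under olanzapine, against 337 ± 55.5 CPM under placebo (SD, n = 5 each), with log2 fold changes of 0.24 ± 0.27 for haloperidol and 0.28 ± 0.27 for olanzapine (SE). The groups overlapped for both genes, and every 95% interval included 0. Grin2a averaged 191 ± 26.9 CPM under haloperidol and 227 ± 127 CPM under olanzapine, against 183 ± 44.1 CPM under placebo (SD, n = 5 each). Grin2b averaged 1164 ± 404 CPM under haloperidol and 1323 ± 260 CPM under olanzapine, against 1170 ± 241 CPM under placebo (SD, n = 5 each). Against placebo, Grin2a had log2 fold changes of 0.07 ± 0.29 for haloperidol and 0.27 ± 0.29 for olanzapine (SE). Grin2b had -0.01 ± 0.27 for haloperidol and 0.17 ± 0.27 for olanzapine (SE), and both genes overlapped between all groups.

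Seen over the 7 members tested in neurons, 5 had a positive fold change for haloperidol against placebo, 7 for olanzapine against placebo and 0 for haloperidol against olanzapine, beside 49.7%, 49.9% and 50.9% of all 3956 genes tested. None of the 7 passed the test, and members measured in the same cells are not independent. The same olanzapine mice enter the last 2 of these comparisons. For olanzapine against placebo, Gria2 was only 0.01. Without the 4 mice with the fewest cells, Gria2 (-0.25), Grin1 (-0.024) and Grin2b (-0.019) were negative in that comparison. At an unadjusted p under 0.05 there were 0 of 7 for haloperidol against placebo, where 2.4% of all genes passed, 2 of 7 for olanzapine against placebo, where 3.11% passed, and 0 of 7 for haloperidol against olanzapine, where 1.11% passed. In none of the 7 did the mice of 2 groups fall into ranges that did not overlap, which 0.758%, 0.607% and 0.303% of all genes tested in neurons did in the same 3 comparisons.

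**Figure D2:**
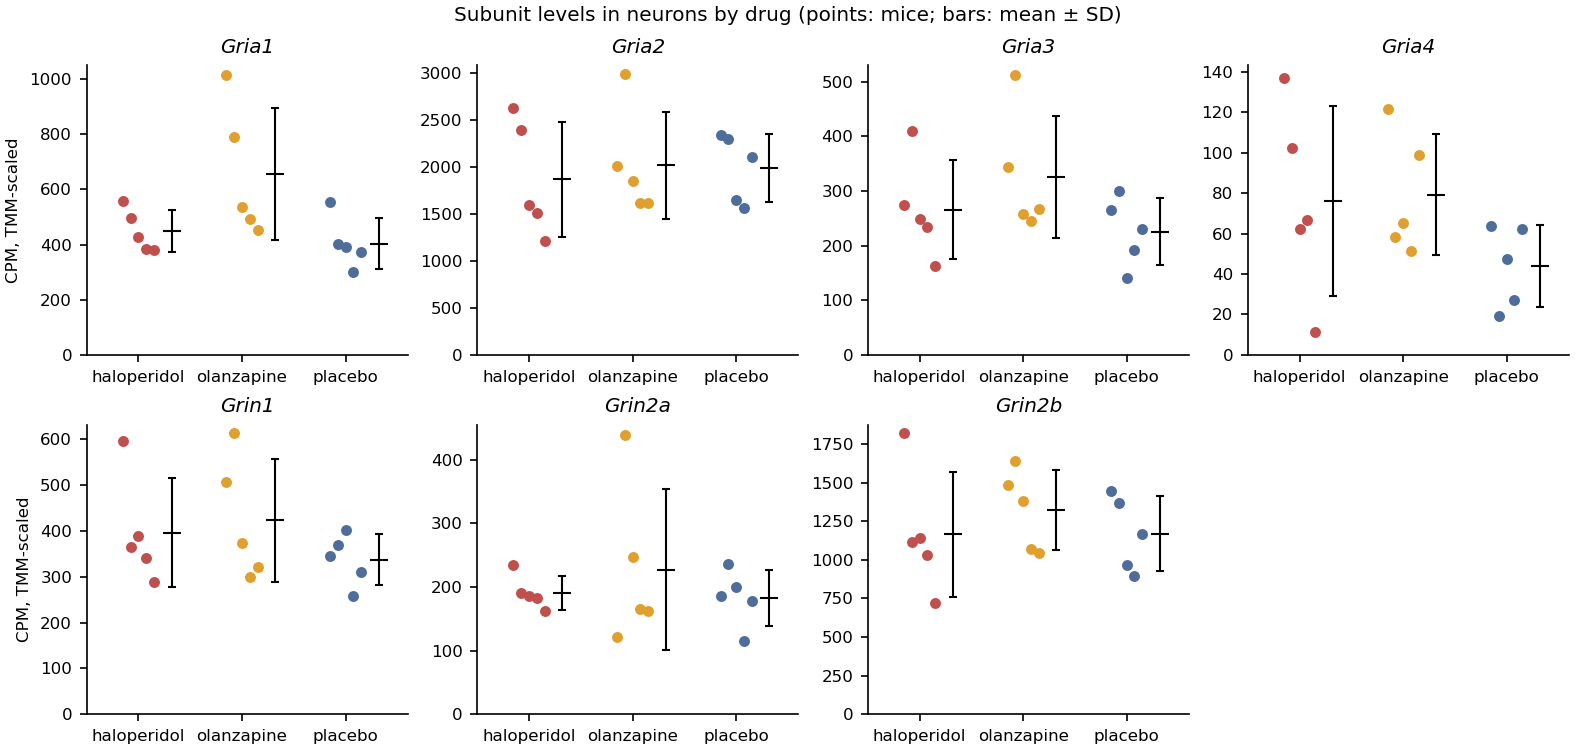
TMM-scaled CPM (vertical axis from 0) of the 7 members tested in neurons, a point for each mouse, with the mean ± SD of each drug group (n = 5). The groups overlap for every gene, and Gria1 under olanzapine has its highest points, 1015 and 790 CPM, in the mice with 16 and 24 neurons.

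The share of Gria2 among AMPA subunit UMIs in neurons was lower in each olanzapine mouse than in any placebo mouse, beside a log2 fold change of 0.01 for Gria2 itself. It was 73.1%, 70.4%, 68.3%, 68.7% and 68.6% in haloperidol 1 to 5 and 57.6%, 68.8%, 68.3%, 67.2% and 66.4% in olanzapine 1 to 5, against 72.7%, 76.2%, 74.1%, 75.1% and 76.0% in placebo 1 to 5. All 5 olanzapine mice lay below all 5 placebo mice, and haloperidol overlapped both groups. The means were 69.8 ± 1.99% under haloperidol and 65.6 ± 4.61% under olanzapine, against 74.8 ± 1.45% under placebo (SD, n = 5 each). The lowest mouse, olanzapine 1, had 172 AMPA subunit UMIs and a 95% Wilson interval of 50.1 to 64.7. The shares of Gria1 to Gria4 depend on each other. The Gria1 share lay at 18.1% to 29.1% under olanzapine, above placebo at 13.3% to 17.5%, and at 14.6% to 21.6% under haloperidol. The Gria2 share was singled out among the subunit shares after their values were seen, so it is a description with no p. How often other such shares separate the groups was not computed.

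Neuron makeup varied between mice, and its part in the Gria2 share was not tested. The interneuron range, where the share is low, made up 0% to 22.7% of neurons in haloperidol mice and 0% to 8.28% in olanzapine mice, against 0% to 3.23% in placebo mice. Summed interneuron markers over all neurons came to 12.5 to 16138 CPM in haloperidol mice and 23.7 to 10398 CPM in olanzapine mice. They came to 0 to 22193 CPM in placebo mice, highest in placebo 4, which had 2.56% of its neurons in the interneuron range. The sum was led by Sst and Npy, at 3833 and 3175 CPM over all neurons, so it does not count interneurons. Within the direct and indirect ranges alone the share was 71.5 ± 2.05% under haloperidol and 69.7 ± 1.05% under olanzapine, against 75.0 ± 1.41% under placebo (SD, n = 5 each). There the olanzapine mice lay at 68.7% to 71.3%, below placebo at 72.5% to 76.0%. The difference in means was -5.29 percentage points, against -9.16 in all neurons. Olanzapine 1, the lowest mouse over all neurons at 57.6%, was the highest olanzapine mouse there, at 71.3% from 108 AMPA subunit UMIs. Without olanzapine 1, left out after its values were seen, the difference over all neurons was -7.14 percentage points. With the shared cells kept in placebo 5 the difference was -9.22 percentage points. With them left out of all 3 placebo mice it was -7.21, and the groups overlapped, because placebo 3 then had 67.6% from 34 UMIs in 12 neurons and placebo 2 had under 10 neurons and was not used.

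**Figure D3:**
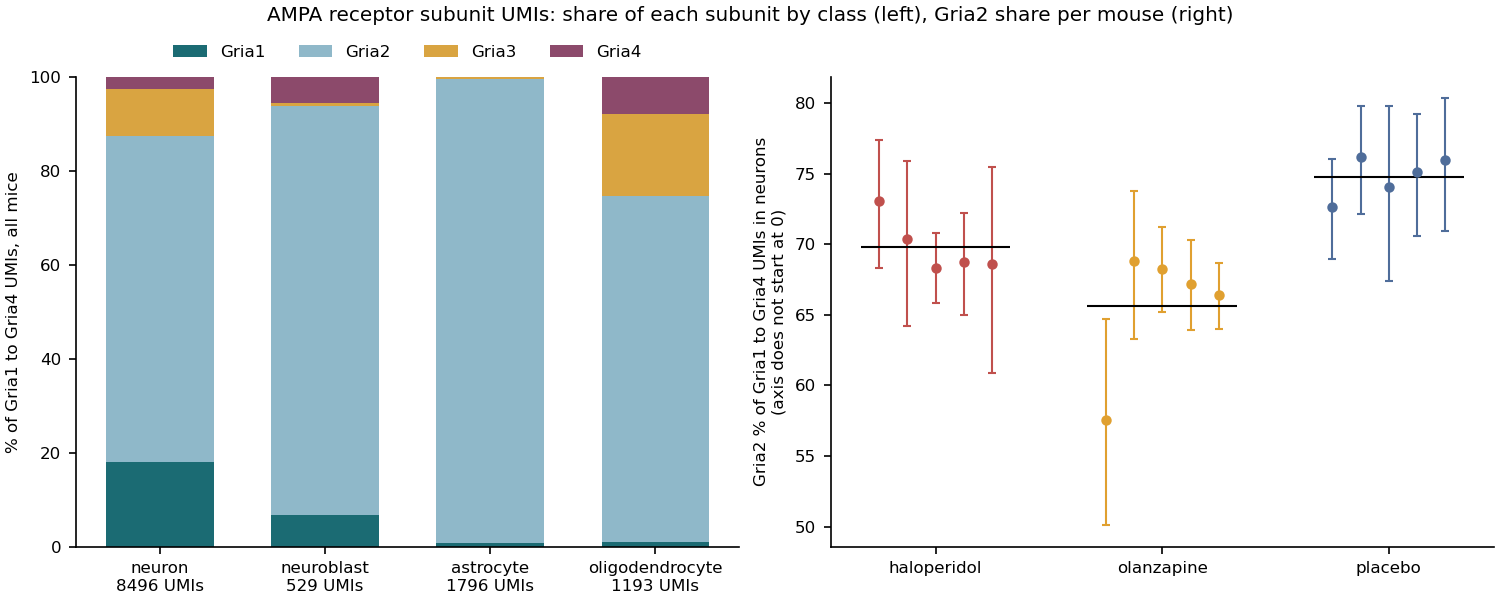
Left, the share (%, stacked bars, all mice pooled) of Gria1 to Gria4 among their summed UMIs in 4 classes. Right, the Gria2 share in neurons for each mouse with its 95% Wilson interval, and the group mean as a line, on an axis that does not start at 0; olanzapine mice lie at 57.6% to 68.8% and placebo mice at 72.7% to 76.2%.

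In astrocytes, none of the 3 members tested was called, and the groups overlapped for each. Gria2 had 613, 353, 385, 375 and 578 CPM in haloperidol 1 to 5 and 889, 293, 567, 474 and 478 CPM in olanzapine 1 to 5, against 386, 188, 407, 572 and 400 CPM in placebo 1 to 5. The log2 fold change against placebo was 0.19 ± 0.24 for haloperidol and 0.40 ± 0.24 for olanzapine (SE, unadjusted p = 0.418 and 0.104, edgeR). The highest mouse was olanzapine 1 and the lowest placebo 2. Grin2c had 281, 130, 310, 121 and 317 CPM in haloperidol 1 to 5 and 1000.02, 176, 333, 325 and 198 CPM in olanzapine 1 to 5, against 217, 248, 568, 128 and 243 CPM in placebo 1 to 5. Single mice stood far above their groups here, olanzapine 1 and placebo 3. Its log2 fold change against placebo was -0.24 ± 0.48 for haloperidol and 0.29 ± 0.48 for olanzapine (SE), and for olanzapine it was 0.05 without the 4 mice with the fewest cells.

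Grin2b in astrocytes had 76.7, 23.5, 30.03, 27.3 and 70.5 CPM in haloperidol 1 to 5 and 37.0, 29.3, 67.2, 79.5 and 52.4 CPM in olanzapine 1 to 5, against 50.8, 45.0, 46.9, 57.2 and 45.0 CPM in placebo 1 to 5. Haloperidol mice fell into high and low values on both sides of the narrow placebo range. The log2 fold change was -0.31 ± 0.34 for haloperidol and 0.34 ± 0.30 for olanzapine (SE, against placebo). Haloperidol against olanzapine gave -0.65 ± 0.33 (SE, unadjusted p = 0.0528, adjusted p = 1.00, edgeR). Summed neuron markers in astrocytes ranged from 62 to 362 CPM under haloperidol and 52 to 313 CPM under olanzapine, against 191 to 405 CPM under placebo, and the part of such RNA in these values was not tested.

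In oligodendrocyte (precursor markers), where 4 haloperidol, 3 olanzapine and 4 placebo mice had at least 10 cells, Gria2 averaged 873 ± 247 CPM under haloperidol (SD, n = 4) and 841 ± 164 CPM under olanzapine (SD, n = 3), against 712 ± 141 CPM under placebo (SD, n = 4). Its log2 fold change against placebo was 0.25 ± 0.21 for haloperidol and 0.22 ± 0.22 for olanzapine (SE). Gria3 averaged 171 ± 26.9 CPM under haloperidol and 193 ± 36.4 CPM under olanzapine, against 172 ± 65.6 CPM under placebo (SD, same n), with log2 fold changes of -0.10 ± 0.32 for haloperidol and 0.22 ± 0.30 for olanzapine (SE). The groups overlapped for all 4 members tested in this class.

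Grin3a, the NMDA subunit with its highest level in this class, had 34.4, 167, 93.4 and 167 CPM in haloperidol 1, 3, 4 and 5 and 137, 272 and 176 CPM in olanzapine 3, 4 and 5, against 117, 119, 102 and 258 CPM in placebo 1, 3, 4 and 5. Its log2 fold change against placebo was -0.13 ± 0.37 for haloperidol and 0.25 ± 0.35 for olanzapine (SE). Gria4 had log2 fold changes of 0.04 ± 0.45 for haloperidol and -0.08 ± 0.44 for olanzapine (SE), on 23 UMIs under haloperidol and 29 under olanzapine, against 39 under placebo. Summed myelin markers in the class, also without TMM, ranged from 611 to 6584 CPM under haloperidol and 824 to 1605 CPM under olanzapine. Under placebo they ranged from 2035 to 3722 CPM, and their part in the gene values was not tested.

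**Figure D4:**
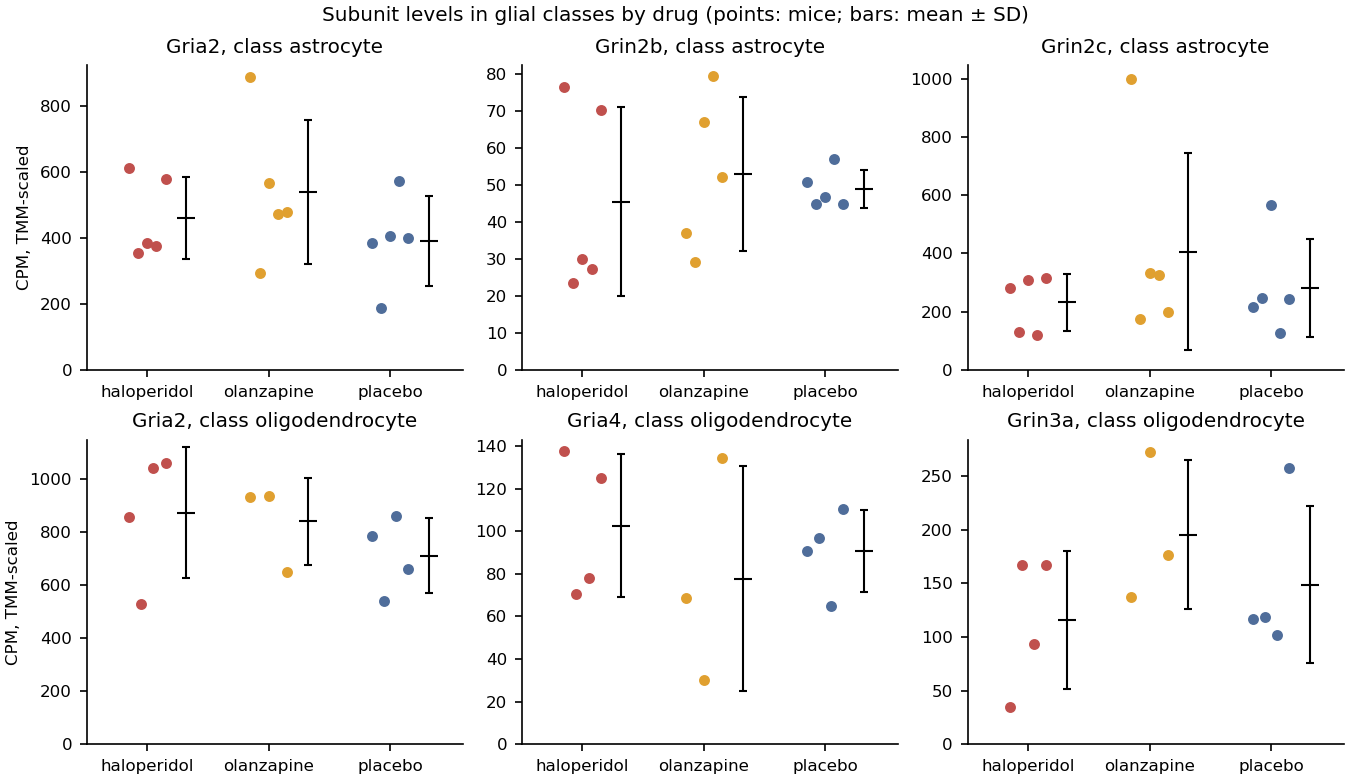
TMM-scaled CPM (vertical axis from 0) of 3 members in astrocytes and 3 in the class labelled oligodendrocyte, a point for each mouse, with the mean ± SD of each drug group. The groups overlap in every panel, and Grin2c in olanzapine 1 stands at 1000.02 CPM.

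**Figure D5:**
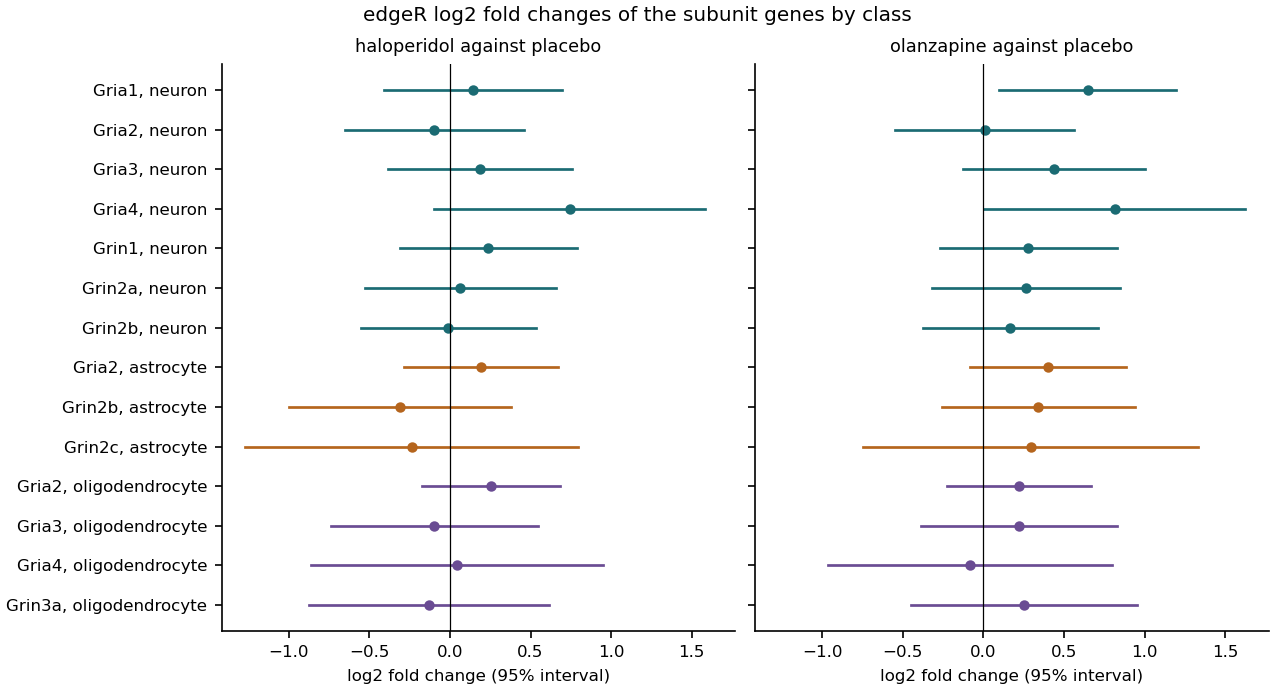
log2 fold changes (edgeR, horizontal axis, points with 95% intervals) against placebo of the members tested in neurons, astrocytes and the class labelled oligodendrocyte. The intervals of Gria1 (0.10 to 1.19) and Gria4 in neurons under olanzapine leave 0 out before adjustment, and all others include 0.

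The genes that work with these receptors were taken from a list of 65 by role, of which 63 were in the table and 36 were tested in neurons; 0 of the 36 were called in any comparison. Of the 36, 23 had a positive and 13 a negative fold change for haloperidol against placebo, 16 and 20 for olanzapine against placebo, and 23 and 13 for haloperidol against olanzapine. All 7 postsynaptic scaffold genes had a positive fold change for olanzapine against placebo, with a median log2 value of 0.29, and 6 of 7 for haloperidol against placebo, with a median of 0.24, beside a median of 0.00 over all genes tested in neurons. Of the 10 auxiliary subunits of AMPA and kainate receptors, 8 had a negative fold change for olanzapine against placebo, with a median of -0.33, and 5 of 10 for haloperidol against placebo. Positive fold changes for olanzapine against placebo were held by 2 of 5 metabotropic receptor genes (median -0.04) and 1 of 3 other ionotropic subunits (-0.01). They were held by 4 of 10 trafficking and anchoring genes (-0.03). For haloperidol against placebo these were 2 of 5 (-0.01), 3 of 3 (0.13) and 7 of 10 (0.23). The 1 uptake gene tested was negative in both. Of all genes tested in neurons, 49.9% were positive for olanzapine and 49.7% for haloperidol. None of these counts was tested as a list.

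Among these 36 genes, the smallest p in neurons for olanzapine against placebo belonged to Dlg2, which encodes the scaffold PSD-93, with a log2 fold change of 0.75 ± 0.31 (SE, unadjusted p = 0.02, adjusted p = 1.00, edgeR). It was followed by Cacng3, an AMPA receptor auxiliary subunit gene, at -0.49 ± 0.25, and Camk2a, the kinase gene of synaptic plasticity, at 0.56 ± 0.32 (SE, unadjusted p = 0.0581 and 0.0881, edgeR). For haloperidol against placebo the smallest were Nlgn2, a gene for an adhesion protein of inhibitory synapses, at 0.60 ± 0.32, Dlg2 at 0.52 ± 0.32 and Nptx2, a gene for a pentraxin that clusters AMPA receptors, at 0.64 ± 0.42 (SE, unadjusted p = 0.0682, 0.106 and 0.135, edgeR). For haloperidol against olanzapine they were Camk2a at -0.61 ± 0.32, Nptx2 at 0.74 ± 0.40 and Nsf, which binds GluA2, at 0.50 ± 0.29 (SE, unadjusted p = 0.0636, 0.0714 and 0.0927, edgeR).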

How the data were processed

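The deposited table holds UMI counts of 15932 genes in 5581 cells, with drug, animal and class lines made by the authors; the genome build mm10 and the tools Cell Ranger and Seurat are named, per the submitters' processing notes, without versions. The drug line and the barcode suffix of all 5581 cells matched the labels. From the counts, 23 cells over 20% mitochondrial UMIs and 81 doublets (Scrublet in scanpy 1.11.5, automatic threshold per mouse; 38 of the 81 in olanzapine 2, at a low threshold) were removed, then the 211 cells of placebo 5 whose barcodes were also in placebo 2 or 3, a choice made after the overlap was seen. Counts were summed per mouse and class (at least 10 cells) and tested where each group had at least 3 mice: edgeR 4.0.16 quasi-likelihood F test (R 4.3.3, two-sided, all 3 groups in the fit, filterByExpr, TMM), Benjamini-Hochberg within class and comparison, threshold 0.05. On simulated counts for olanzapine against placebo in neurons (3921 genes, 200 changed 4-fold), 99% of the changed genes were recovered and 7 unchanged genes were called. The changed genes were drawn from the more abundant ones. The largest fold of a member against placebo was 1.76 (Gria4 in neurons, olanzapine), and recovery of changes of that size was not simulated. Depth was 212300 to 4231756 UMIs per mouse.

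The alternatives were RLE size factors, DESeq2 1.42.0, no filter, doublets kept or removed at 1 score of 0.25, cells over the mitochondrial limit kept, at least 20 cells, only the 2 groups compared, without each mouse in turn, without the 4 mice with the fewest cells, and neurons with projection markers only; handling of the shared cells and the direct and indirect ranges were added after the data were seen. The members and gene lists were chosen with earlier results of these data known. All 9 members are named; of the list of 65 related genes, those called, and in neurons the 3 with the smallest p per comparison, are named; likeness names 2 genes per member. Zero counts are given an upper limit of 3 UMIs, which, like the 95% intervals of shares, covers counting error only.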

Additional observations from a re-analysis of the deposited data

Results flagged for a closer look

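In 5 of 44 groups of 4 or 5 mice (11.4%), 1 mouse stood apart from its group by Dixon's criterion, which chance meets in about 1 group in 20. The CPM values here are scaled as in the drug comparisons. Gria2 in neurons had 2998 CPM in olanzapine 2 (24 neurons), against 1614 to 2009 CPM in the other olanzapine mice. Grin2c in astrocytes had 1000.02 CPM in olanzapine 1, against 176 to 333 CPM in the other olanzapine mice, and 568 CPM in placebo 3, against 128 to 248 CPM in the other placebo mice. Grin3a in the class labelled oligodendrocyte had 258 CPM in placebo 5, against 102 to 119 CPM in the other placebo mice. The Gria2 share of AMPA subunit UMIs in neurons was 57.6% in olanzapine 1 (16 neurons), against 66.4% to 68.8% in the other olanzapine mice. The cause of these values was not tested.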

How the results depend on the processing

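No member test was called in any of the 3 comparisons under any alternative run (66 counts, all 0), over 7 to 55 member tests an alternative, against 15 as reported. Of 459 alternative values of the 21 fold changes in neurons, 42 changed sign, and of 306 values of the 15 in glia, 20 did. The fold changes that changed sign had values from -0.24 to 0.29, and the cause was not tested. Without the 4 mice with the fewest cells, log2 fold changes for haloperidol against placebo in neurons were -0.052 for Gria3, -0.025 for Gria1 and -0.031 for Grin2a. Those for olanzapine against placebo were -0.024 for Grin1, -0.25 for Gria2 and -0.019 for Grin2b, and for haloperidol against olanzapine 0.059 for Grin1. In the class labelled oligodendrocyte, haloperidol against placebo then gave 0.023 for Grin3a and -0.068 for Gria4. With at least 20 cells, Gria2 for olanzapine against placebo was -0.0013, Grin1 for haloperidol against olanzapine 0.056, and in the class labelled oligodendrocyte Grin3a and Gria4 for haloperidol against placebo were 0.018 and -0.073. With shared cells left out of all 3 placebo mice, Gria2 and Grin2b in neurons for haloperidol against placebo were 0.029 and 0.092, and Gria3 in the class labelled oligodendrocyte for olanzapine against placebo was -0.053. With no filter, Gria2 in neurons for olanzapine against placebo was -0.049 and Gria4 in the class labelled oligodendrocyte for haloperidol against placebo was -0.045. With doublets kept, Gria2 for olanzapine against placebo was -0.15, and for haloperidol against olanzapine Grin1 was 0.15 and Gria4 0.064. With 1 doublet score these were -0.14, 0.15 and 0.057. With only the 2 groups compared, Grin2b in neurons for haloperidol against placebo was 0.015. With only neurons over the projection marker cut, Gria4 for haloperidol against olanzapine was 0.088.

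Leaving out each mouse in turn gave these ranges of log2 fold changes where a sign changed. In neurons for haloperidol against placebo they were -0.27 to 0.020 for Gria2, -0.074 to 0.18 for Grin2a and -0.24 to 0.12 for Grin2b, and for olanzapine against placebo -0.21 to 0.089 for Gria2 and -0.037 to 0.39 for Grin2a. For haloperidol against olanzapine they were -0.26 to 0.098 for Gria2, -0.31 to 0.12 for Gria4, -0.22 to 0.15 for Grin1 and -0.32 to 0.090 for Grin2a. For Grin2c in astrocytes they were -0.44 to 0.16 for haloperidol against placebo and -0.0097 to 0.69 for olanzapine against placebo. In the class labelled oligodendrocyte for haloperidol against placebo they were -0.32 to 0.044 for Gria3, -0.088 to 0.25 for Gria4 and -0.44 to 0.20 for Grin3a, and for olanzapine against placebo -0.0032 to 0.36 for Gria3 and -0.55 to 0.18 for Gria4. Gria1 in neurons for olanzapine against placebo ranged from 0.45 to 0.80.

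Over the whole table the number of called genes was 1 for haloperidol against placebo and 0 for olanzapine against placebo. With the shared cells kept in placebo 5 it was 2 and 10, with DESeq2 3 and 5, and with no filter 7 and 46. No paired analysis was possible because the labels number the mice 1 to 15 across the groups, and no number is shared between groups. Neurons numbered 15 to 160 per mouse, which limits the neuronal values, and thinning cells to 1000 UMIs lowered shares of cells with a UMI.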
